A study of Mus musculus with 2 samples.

Results

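The 10 genes of the Polycomb repressive complexes followed here were measured in a droplet-based single-cell RNA-seq experiment on mouse pluripotent cells: Ezh1, Ezh2, Eed, Suz12, Jarid2, Mtf2, Phf19, Aebp2, Rnf2 and Kdm2b. They were chosen by symbol, and all 10 were found among the 32286 features counted. The data were 2 libraries without replicates, 1 of embryonic stem cells (ESCs) in serum/LIF on feeder cells (0 h) and 1 of epiblast-like cells after 48 h in medium with activin A, bFGF and KSR (48h-EpiLCs). Each library was an equal mixture of wild-type (WT) cells with a ROSA mT/mG allele, which gives tdTomato transcripts, and of Cnot8 knockout (KO) cells of the ICR strain. Cnot8 is one of the enzymes with which Ccr4-Not shortens the tails of mRNA. By the study's methods the KO ESCs were derived from blastocysts of heterozygous parents that carry a CRISPR/Cas9 mutation, by picking single colonies, and how many lines were used is not stated. The methods also describe EpiLC formation from ESCs in 2i/LIF, and which ESCs gave the 48h-EpiLCs sequenced here is not stated.

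Polycomb proteins keep developmental genes silent. Polycomb repressive complex 2 (PRC2) methylates lysine 27 of histone H3. Its catalytic subunit is Ezh2 or Ezh1, Eed reads the finished mark and stimulates the enzyme, and Suz12 is the scaffold on which the subunits assemble. The core joins either a Polycomb-like protein such as Mtf2 or Phf19 (the PRC2.1 form) or Jarid2 and Aebp2 (the PRC2.2 form), and these accessory subunits bring it to CpG islands or to ubiquitinated nucleosomes. Polycomb repressive complex 1 (PRC1) ubiquitinates histone H2A through Rnf2, also named Ring1b, and Kdm2b brings a variant form of PRC1 to unmethylated CpG islands. ESCs without PRC2 can self-renew but differentiate poorly.

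Single cells were placed in a line by their own transcripts. A cell was kept if its UMIs (unique molecular identifiers, each counting 1 captured mRNA) came from 1000 genes or more and no more than 10% of them were mitochondrial, which left 11054 ESCs and 9400 48h-EpiLCs. WT cells had at least 1 UMI of tdTomato and none of the Y-linked Ddx3y, Eif2s3y, Kdm5d and Uty, and KO cells had no tdTomato and at least 2 Y-linked UMIs. This gave 435 WT and 2978 KO ESCs with medians of 13151 and 13368 UMIs, and 368 WT and 2977 KO 48h-EpiLCs with medians of 15598 and 17628 UMIs. Both marks were present in 35 cells of each library (0.317% and 0.372%), and 68.8% and 64.0% of the kept cells had neither pair of marks. Of the tdTomato-positive cells, 84.1% and 81.4% had no Y-linked UMI. Exactly 1 tdTomato UMI was held by 402 of the 435 WT ESCs and 344 of the 368 WT 48h-EpiLCs. The WT class thus rests mostly on single UMIs, and the part of free RNA in it was not tested. The libraries shared 41 barcodes. Since the lines were told from each other by transcripts unrelated to Cnot8, genotype and any other difference between the lines cannot be told apart, and neither can stage and library. Cnot8 RNA itself was not lower in KO cells (43.1 CPM in WT and 72.1 CPM in KO ESCs, 49.7 and 62.6 CPM in 48h-EpiLCs). The KO allele of the study is a short deletion, and its KO ESCs were checked by PCR genotyping and Western blot. In these data a single cell was thus called KO by the marks used to choose it, not by its Cnot8 RNA. The stage labels went with their markers, since 5 genes of the serum ESC side summed to 943 and 1256 CPM in WT and KO ESCs but to 87.5 and 209 CPM in the later library, whereas 5 genes of the EpiLC side summed to 378 and 390 CPM and to 1195 and 1024 CPM. All 5 pluripotency markers were present in each class. The 7 feeder fibroblast markers summed to 10.2 CPM in WT ESCs with 1 of them at 0, to 35.8 CPM in KO ESCs with none at 0, to 6.91 CPM in WT 48h-EpiLCs with 3 at 0 and to 10.7 CPM in KO 48h-EpiLCs with none at 0, and their part in the differences between lines is given with the feeder cells.

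UMIs were summed over the cells of a class and scaled to a class total of 1000000 (CPM). Intervals in parentheses are exact 95% intervals, except that those on differences between stage changes are approximate and come from the Poisson variance of the counts. They cover counting error only and say nothing on how a second culture would vary. A difference past 1.5-fold was counted on the log2 ratio of CPM + 1 for genes with a mean of at least 5 CPM in the classes compared, and the share of all such genes past 1.5-fold is given beside the counts. Ratios of single genes are log2 ratios of CPM without a pseudocount unless CPM + 1 is named.

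The genes lie on 7 chromosomes, and all are protein-coding. On GRCm38, the build of the mm10 reference, Ezh1 (ENSMUSG00000006920) and Suz12 (ENSMUSG00000017548) are on chromosome 11 at 101191115 to 101226463 (minus strand) and 79993106 to 80034123 (plus strand). Ezh2 (ENSMUSG00000029687, 47530139 to 47595341, minus) and Aebp2 (ENSMUSG00000030232, 140622663 to 140678472, plus) are on chromosome 6. Mtf2 (ENSMUSG00000029267, 108065674 to 108109004, plus) and Kdm2b (ENSMUSG00000029475, 122870665 to 122989823, minus) are on chromosome 5. Eed (ENSMUSG00000030619) is on chromosome 7 at 89954654 to 89980983 (minus), Jarid2 (ENSMUSG00000038518) on chromosome 13 at 44729474 to 44921643 (plus), Phf19 (ENSMUSG00000026873) on chromosome 2 at 34893757 to 34914026 (minus) and Rnf2 (ENSMUSG00000026484) on chromosome 1 at 151458004 to 151500955 (minus). Counted genes overlap 5 of them on the opposite strand, namely E230029C05Rik with Eed, Tmed5 with Mtf2, Gm13448 with Phf19, Trmt1l with Rnf2, and Rnf34 and A930024E05Rik with Kdm2b. It is not stated that reads were counted by strand, so these 5 levels are less certain.

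The promoters were searched for the site of E2F factors, which switch on genes for DNA replication and the cell cycle, after the levels of most of the genes had been seen to differ between cell-cycle bins. The motif was spelled as TTTCCCGC, TTTCGCGC, TTTGGCGC or TTTGCCGC on either strand, in RefSeq windows (GRCm38.p6) from 250 bases before to 50 bases after each transcript start. At least 1 form was found in 744 of all 32851 windows (2.26%). All 10 genes had a window, 17 windows in all, and Ezh2, Suz12 and Phf19 held a match. The stretches around the 3 matches are shown in the direction of transcription, with the motif in capitals. In Suz12 it begins 219 bases before the start and in Phf19 208 bases before it, on the opposite strand there, and in Ezh2 it begins at base 4 of the transcript. The stretches lie at chr11:79992856-79992939 (plus strand), chr2:34914132-34914226 (minus strand) and chr6:47595019-47595110 (minus strand).
Suz12: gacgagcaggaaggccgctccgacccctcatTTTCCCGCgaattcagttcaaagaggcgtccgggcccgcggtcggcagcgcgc
Phf19: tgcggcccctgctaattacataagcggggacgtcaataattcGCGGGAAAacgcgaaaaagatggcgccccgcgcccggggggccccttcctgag
Ezh2: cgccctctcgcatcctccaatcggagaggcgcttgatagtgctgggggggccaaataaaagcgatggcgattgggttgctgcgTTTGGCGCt
In the windows of the other 7 genes these letters did not occur. A match is a string of letters and was not tested as a site.

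The 10 genes followed here were lower in 48h-EpiLCs than in ESCs. All 10 were lower in WT cells and all 10 in KO cells, where 52.5% and 47.9% of all genes measured were higher. The median log2 ratio of the 10 was -0.83 in WT cells against 0.03 for all 9242 genes, and -0.60 in KO cells against -0.02 for all 9478 genes. Past 1.5-fold lower were 5 of 9 measured genes in WT cells (Eed, Jarid2, Mtf2, Aebp2 and Kdm2b), where 11.4% of all genes were, and 5 of 10 in KO cells (Ezh1, Eed, Jarid2, Aebp2 and Kdm2b), where 10.1% were. None was past 1.5-fold higher, as 13.3% of all genes were in WT and 8.55% in KO cells. Phf19 lay under the minimum in WT cells. Other PRC1 genes, counted in lists below, were not lower as a set in WT cells. The median stage ratio of the measured core and canonical PRC1 genes was 0.22 in WT and -0.19 in KO cells. For the measured variant PRC1 genes it was 0.25 and 0.09. Below 0 in both lines were the medians of the other measured PRC2 genes (-0.38 in WT and -0.43 in KO cells). The same held for the enzymes that remove the Polycomb marks or serve those that do (-0.27 and -0.37). A lower level with stage was thus not particular to the genes followed here. Within the S bin alone, 2 of the 20 ratios of the 10 genes turned above 0. These were Ezh1 (0.28) and Phf19 (0.20) of WT cells, both with few UMIs (log2 of CPM + 1).

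**Figure D1:**
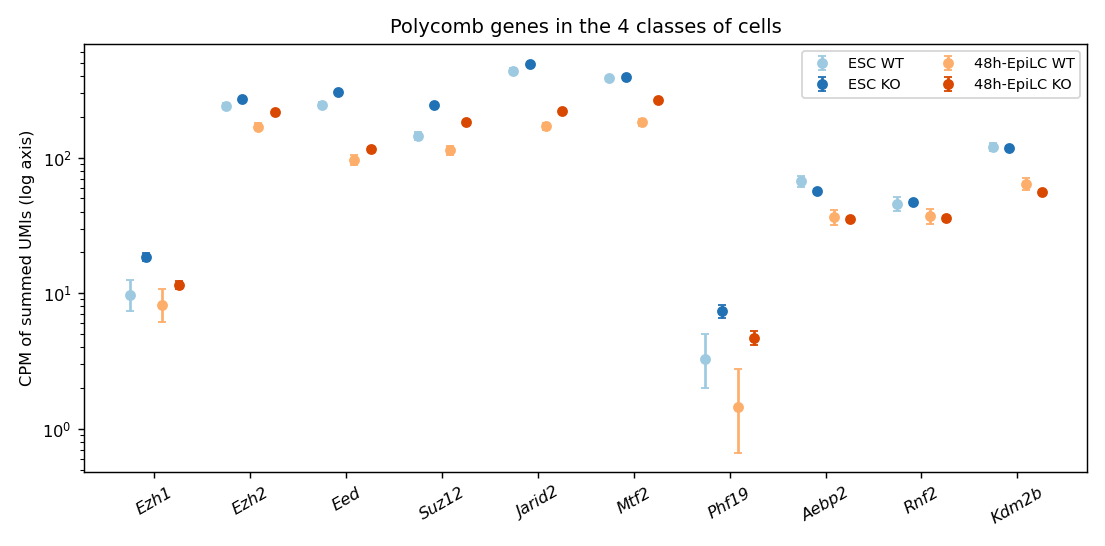
Level of each of the 10 Polycomb genes, in CPM of summed UMIs on a log axis, in WT and KO cells of both libraries, with exact 95% Poisson intervals. Every gene is lower in 48h-EpiLCs (orange) than in ESCs (blue) of the same line, and the intervals are widest for Phf19, which rests on 20 and 9 UMIs in WT cells.

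Both catalytic subunits were lower in 48h-EpiLCs, though the WT interval of Ezh1 included 0. Ezh2, the main methyltransferase of dividing cells, was 240 CPM in WT ESCs (228 to 253), 269 CPM in KO ESCs (264 to 274), 169 CPM in WT 48h-EpiLCs (159 to 180) and 217 CPM in KO 48h-EpiLCs (213 to 220). The 4 intervals did not overlap, with KO above WT at each stage and both ESC classes above both 48h-EpiLC classes. Its log2 ratio from ESCs to 48h-EpiLCs was -0.50 in WT (-0.62 to -0.39) and -0.31 in KO cells (-0.35 to -0.28), short of 1.5-fold in both. Ezh1, the weaker methyltransferase that prevails in resting cells, was 9.75 CPM in WT ESCs (7.44 to 12.6), 18.5 CPM in KO ESCs (17.2 to 19.8), 8.20 CPM in WT 48h-EpiLCs (6.11 to 10.8) and 11.5 CPM in KO 48h-EpiLCs (10.7 to 12.4). KO ESCs stood above the other 3 classes, whose neighbours in the order overlapped. The stage ratio of Ezh1 was -0.68 in KO cells (-0.83 to -0.53) and -0.25 in WT cells (-0.82 to 0.31), where 60 and 51 UMIs lay behind it.

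Eed and Suz12, both needed for the enzyme to be stable and active, parted at this step. Eed was 244 CPM in WT ESCs (232 to 256), 304 CPM in KO ESCs (299 to 310), 96.0 CPM in WT 48h-EpiLCs (88.4 to 104) and 116 CPM in KO 48h-EpiLCs (114 to 119). From ESCs to 48h-EpiLCs its log2 ratio was -1.34 in WT (-1.48 to -1.21) and -1.39 in KO cells (-1.43 to -1.34), at percentiles 2.94 and 2.23 of all genes measured. Suz12 was 145 CPM in WT ESCs (136 to 155), 245 CPM in KO ESCs (240 to 249), 113 CPM in WT 48h-EpiLCs (105 to 122) and 184 CPM in KO 48h-EpiLCs (181 to 188). For Suz12 the stage ratio was -0.36 in WT (-0.51 to -0.22) and -0.41 in KO cells (-0.45 to -0.37). For Suz12 alone among the 10 the order of the 4 classes followed the line before the stage without overlapping intervals, so that KO 48h-EpiLCs stood above WT ESCs. The difference between the stage changes of KO and WT cells included 0 for both genes (Eed -0.04, -0.18 to 0.10, and Suz12 -0.05, -0.19 to 0.10).

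Of the PRC2.2 subunits, Jarid2, which helps to place PRC2 on chromatin and whose methylated form stimulates it through Eed, was 439 CPM in WT ESCs (423 to 456), 489 CPM in KO ESCs (482 to 496), 171 CPM in WT 48h-EpiLCs (161 to 182) and 220 CPM in KO 48h-EpiLCs (216 to 223). The 4 intervals were apart, in the same order as those of Ezh2 and Eed. The stage ratio of Jarid2 was -1.36 in WT (-1.46 to -1.26) and -1.15 in KO cells (-1.19 to -1.12), a difference of 0.21 (0.10 to 0.31). Aebp2, a zinc-finger subunit that steadies the complex, was 66.9 CPM in WT ESCs (60.6 to 73.7), 56.4 CPM in KO ESCs (54.2 to 58.6), 36.3 CPM in WT 48h-EpiLCs (31.8 to 41.4) and 35.1 CPM in KO 48h-EpiLCs (33.6 to 36.6). It was the gene of the 10 whose WT value was the higher in ESCs without overlap, and the 48h-EpiLC classes did not differ beyond counting error. With stage its log2 ratio was -0.88 in WT (-1.12 to -0.64) and -0.68 in KO cells (-0.77 to -0.60).

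Of the PRC2.1 subunits, Mtf2, a Polycomb-like protein that binds CpG-rich DNA, was 386 CPM in WT ESCs (371 to 402), 394 CPM in KO ESCs (389 to 400), 183 CPM in WT 48h-EpiLCs (172 to 194) and 267 CPM in KO 48h-EpiLCs (263 to 271). The ESC classes overlapped and the 48h-EpiLC classes did not. Its stage ratio was -1.08 in WT (-1.18 to -0.98) and -0.56 in KO cells (-0.59 to -0.53), a difference of 0.51 (0.41 to 0.62) that was the widest among the genes whose interval lay clear of 0. Ezh2 and Jarid2 were the other genes with such an interval, and the Ezh2 difference was 0.19 (0.07 to 0.31). Phf19, a second Polycomb-like protein, was 3.25 CPM in WT ESCs (1.99 to 5.02), 7.39 CPM in KO ESCs (6.61 to 8.24), 1.45 CPM in WT 48h-EpiLCs (0.662 to 2.75) and 4.67 CPM in KO 48h-EpiLCs (4.14 to 5.26). In WT cells these values rest on 20 and 9 UMIs, and its stage ratio was -1.17 in WT (-2.49 to 0.03) and -0.66 in KO cells (-0.90 to -0.43).

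The PRC1 genes followed here also parted. Rnf2, the ubiquitin ligase, was 45.7 CPM in WT ESCs (40.5 to 51.3), 46.7 CPM in KO ESCs (44.7 to 48.8), 36.8 CPM in WT 48h-EpiLCs (32.2 to 41.9) and 35.7 CPM in KO 48h-EpiLCs (34.2 to 37.2). It had the narrowest range of the 10 over the 4 classes, 0.38 on the log2 scale, and its lines did not differ beyond counting error at either stage. Kdm2b was 120 CPM in WT ESCs (112 to 129), 118 CPM in KO ESCs (115 to 121), 64.3 CPM in WT 48h-EpiLCs (58.2 to 70.9) and 55.7 CPM in KO 48h-EpiLCs (53.8 to 57.6). Its stage ratio was -0.90 in WT (-1.08 to -0.73) and -1.08 in KO cells (-1.14 to -1.02), against -0.31 (-0.57 to -0.05) and -0.39 (-0.48 to -0.30) for Rnf2.

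**Figure D2:**
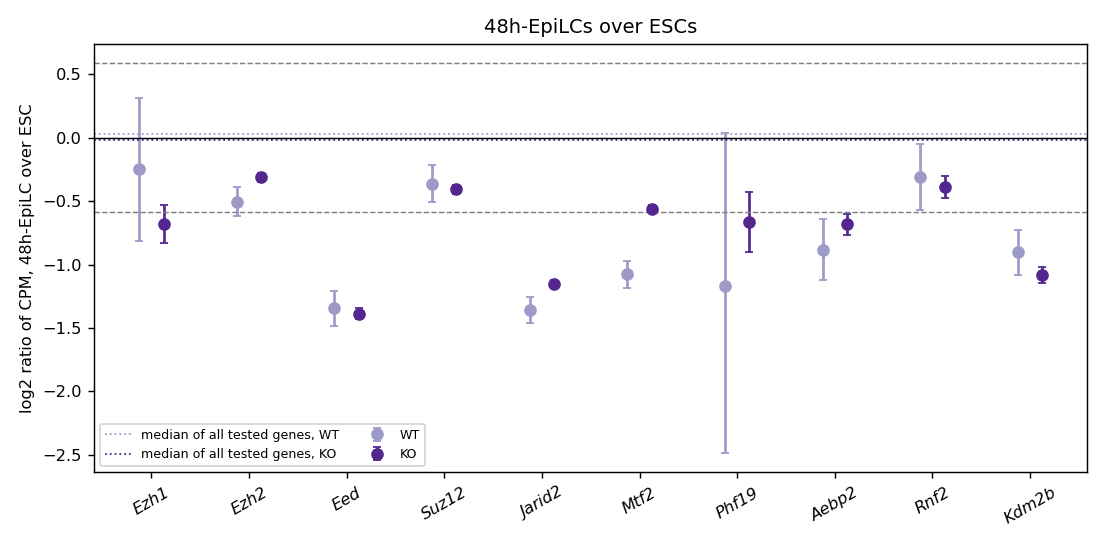
Log2 ratio of CPM, 48h-EpiLC over ESC, of each gene in WT and KO cells, with exact 95% intervals for counting error, the median of all genes measured (dotted) and 1.5-fold (dashed). All 20 points lie below 0, with Eed and Jarid2 between -1.39 and -1.15 and Ezh2, Suz12 and Rnf2 between -0.50 and -0.31.

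The lower levels did not depend on the choice of cells by line marks. Over all kept cells of each library, whatever their marks, Jarid2 was 447 CPM in ESCs and 199 CPM in 48h-EpiLCs, Eed 278 and 108 CPM, Mtf2 378 and 233 CPM, and Kdm2b 117 and 59.9 CPM. Ezh2 was 256 and 204 CPM, Suz12 206 and 154 CPM, Aebp2 58.8 and 35.7 CPM, Rnf2 44.6 and 35.5 CPM, Ezh1 14.6 and 10.6 CPM, and Phf19 5.58 and 3.52 CPM. All 10 were again lower in 48h-EpiLCs.

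KO cells held more RNA of some PRC2 genes than WT cells, and Suz12 was the gene that did so past 1.5-fold at both stages. The log2 ratio of Suz12, KO over WT, was 0.75 in ESCs (0.65 to 0.85) and 0.70 in 48h-EpiLCs (0.59 to 0.82), at percentiles 92.3 and 94.8 of all genes measured. Ezh1 at 0.92 (0.54 to 1.32) and Phf19 at 1.19 (0.53 to 1.92) were also past 1.5-fold in ESCs. In all, 3 of 10 genes were past 1.5-fold higher in KO ESCs, where 12.4% of all genes were, and none was past 1.5-fold lower, where 4.98% were. In 48h-EpiLCs 1 of 9 measured genes was past 1.5-fold higher, where 8.07% of all genes were, and none was past 1.5-fold lower, where 4.3% were. The median of the 10 was 0.16 in ESCs against 0.13 for all 9277 genes, and 0.36 in 48h-EpiLCs against 0.07 for all 9385 genes.

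In 48h-EpiLCs the other PRC2 genes except Aebp2 lay above 0 without reaching 1.5-fold or the minimum level. Mtf2 had a log2 ratio of 0.55 (0.46 to 0.63) after 0.03 (-0.03 to 0.09) in ESCs. Jarid2 had 0.36 (0.27 to 0.45) after 0.15 (0.10 to 0.21), Ezh2 0.36 (0.27 to 0.45) after 0.16 (0.09 to 0.24), and Eed 0.28 (0.16 to 0.40) after 0.32 (0.24 to 0.40). Ezh1 was at 0.49 (0.08 to 0.93), and Phf19 at 1.69 (0.75 to 2.84) on 9 WT UMIs. Rnf2 and Kdm2b did not share this, at -0.05 (-0.24 to 0.16) and -0.21 (-0.36 to -0.05), and Aebp2 was at -0.05 (-0.25 to 0.15).

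**Figure D3:**
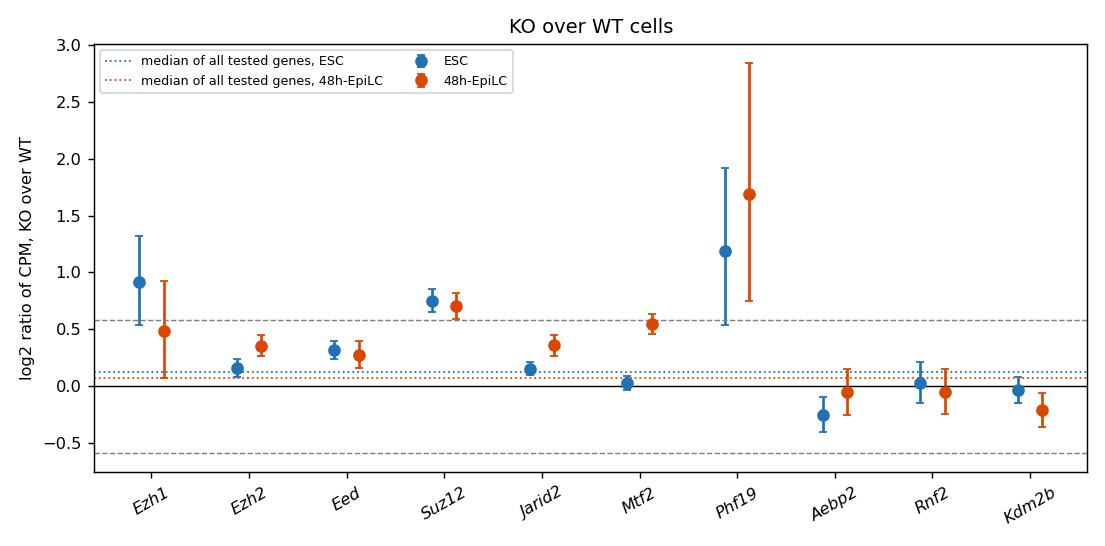
Log2 ratio of CPM, KO over WT, of each gene in ESCs and in 48h-EpiLCs, with exact 95% intervals for counting error, the median of all genes measured (dotted) and 1.5-fold (dashed). Suz12 lies at 0.75 and 0.70, Mtf2 moves from 0.03 to 0.55, and Rnf2, Kdm2b and Aebp2 lie at or below the medians in both libraries.

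Scaling and the choice of cells moved the ratios between the lines. The TMM method of edgeR shifted the KO over WT ratios by -0.10 in ESCs and -0.05 in 48h-EpiLCs. In ESCs this put Mtf2 (-0.07) and Rnf2 on the other side of 0 and left Suz12 at 0.65 (log2 of CPM + 1). When both lines were taken from cells of at least 20000 UMIs, with WT defined by 0 Y-linked UMIs alone (286 WT and 490 KO ESCs, 742 WT and 1126 KO 48h-EpiLCs), which changes both the depth and the line rule, no gene was past 1.5-fold. Suz12 was then 153 CPM in WT and 217 CPM in KO ESCs (0.51, 0.41 to 0.61) and 117 and 170 CPM in 48h-EpiLCs (0.54, 0.47 to 0.61), and Mtf2 was at 0.04 (-0.03 to 0.11) and 0.32 (0.26 to 0.37). With the same depth and the line rule unchanged, an alternative added after the data were seen, 47 WT ESCs and 90 WT 48h-EpiLCs were left, Suz12 was at 0.50 (0.27 to 0.72) and 0.57 (0.39 to 0.76), and 2 of 10 genes (Ezh1 and Phf19, on 11 and 5 WT UMIs) were past 1.5-fold in ESCs and none of 9 in 48h-EpiLCs. Other changes of depth kept Suz12 past 1.5-fold, at 0.72 and 0.78 after thinning to 5000 UMIs and at 0.83 and 0.79 without the deepest 10% of cells (log2 of CPM + 1).

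Shares of UMIs within a complex do not depend on the class total, though they count transcripts as captured. Ezh1 made up 3.90% of Ezh1 plus Ezh2 UMIs in WT ESCs (2.99% to 5.0%), 6.42% in KO ESCs (6.0% to 6.86%), 4.62% in WT 48h-EpiLCs (3.46% to 6.03%) and 5.04% in KO 48h-EpiLCs (4.68% to 5.42%). KO ESCs stood apart from WT ESCs and KO 48h-EpiLCs. Phf19 made up 0.835% of Mtf2 plus Phf19 UMIs in WT ESCs (0.511% to 1.29%) and 1.84% in KO ESCs (1.65% to 2.05%), and 0.785% (0.360% to 1.49%) and 1.72% (1.53% to 1.93%) in 48h-EpiLCs. Within a line this share did not differ between stages beyond counting error. Jarid2 and Aebp2 together made up 56.5% of the UMIs of the 4 accessory genes in WT ESCs (55.2% to 57.8%), 57.6% in KO ESCs (57.1% to 58.1%), 53.0% in WT 48h-EpiLCs (51.0% to 55.0%) and 48.4% in KO 48h-EpiLCs (47.9% to 49.0%). This Jarid2 plus Aebp2 share was thus lower in KO 48h-EpiLCs than in the other 3 classes. In WT cells the difference between stages depended on the genes and cells counted, since after thinning to 5000 UMIs the share was 54.5% in ESCs (52.2% to 56.8%) and 54.3% in 48h-EpiLCs (50.6% to 57.9%). With Epop, a further PRC2.1 partner, counted among the accessory genes, an alternative added after the data were seen, it was 42.95% (41.8% to 44.1%) and 43.0% (41.2% to 44.8%) in WT cells, and 36.9% (36.5% to 37.2%) and 35.7% (35.3% to 36.2%) in KO cells, which then lay below WT cells at both stages.

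The share of cells with a UMI followed the summed levels. After each cell was thinned to 5000 UMIs, which left out 1 WT and 23 KO ESCs and 1 WT and 9 KO 48h-EpiLCs as shallower, Suz12 was detected in 50.9% of WT ESCs (46.1% to 55.7%), 69.5% of KO ESCs (67.8% to 71.1%), 42.2% of WT 48h-EpiLCs (37.1% to 47.5%) and 58.6% of KO 48h-EpiLCs (56.8% to 60.4%). Unthinned these shares were 82.5%, 94.1%, 80.4% and 94.1%. Jarid2 was detected in 80.6%, 88.5%, 54.5% and 63.8% of the thinned cells of the 4 classes in the same order, and in 96.8%, 97.9%, 89.4% and 94.3% of the whole cells. Eed was detected in 66.6%, 78.5%, 39.2% and 44.95% of thinned cells, and in 93.3%, 95.8%, 77.2% and 85.1% unthinned. Mtf2 was detected in 80.9%, 83.8%, 58.3% and 72.8% of thinned cells (95.9%, 97.2%, 88.6% and 97.1% unthinned), and Kdm2b in 42.6%, 42.0%, 25.6% and 25.5% (70.8%, 72.5%, 59.8% and 62.9%). The thinned shares of WT and KO 48h-EpiLCs lay apart for Mtf2, and those of Kdm2b overlapped in both libraries. At the other end, Phf19 was seen in 0.691%, 3.69%, 0.545% and 2.36% of thinned cells (3.91%, 9.17%, 1.90% and 7.96% unthinned). All 3 core transcripts Ezh2, Eed and Suz12 were seen together in 26.7% of thinned WT ESCs (22.6% to 31.2%), 38.6% of KO ESCs (36.8% to 40.4%), 11.4% of WT 48h-EpiLCs (8.37% to 15.1%) and 19.0% of KO 48h-EpiLCs (17.6% to 20.5%), and none of the 3 in 5.53%, 2.77%, 17.4% and 7.98%. Independent detection of the 3 would give 25.3%, 38.1%, 9.6% and 17.9% for all 3. For none of the 3 it would give 4.4%, 2.03%, 15.4% and 7.34%.

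**Figure D4:**
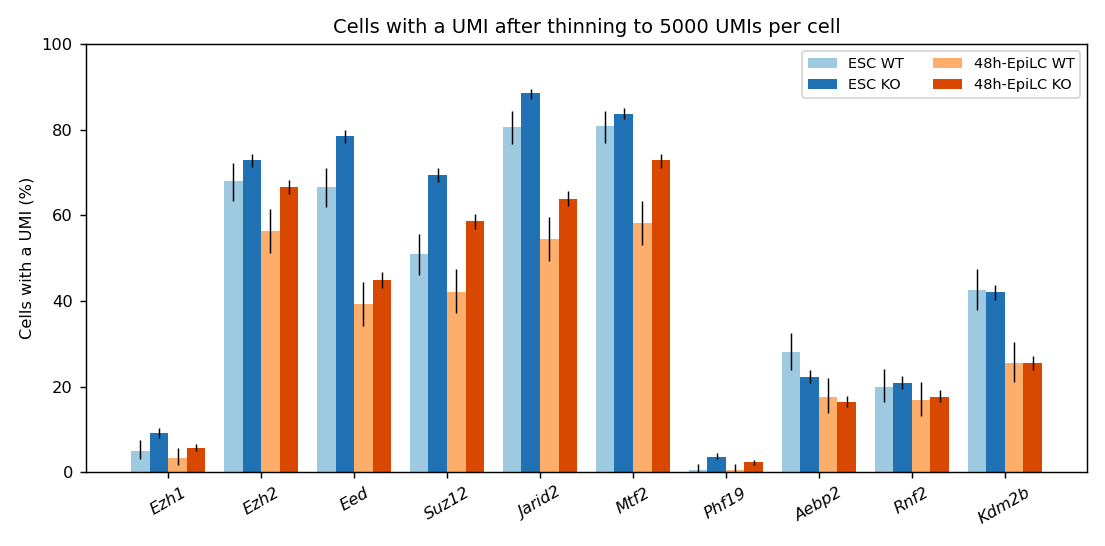
Share of cells with at least 1 UMI of each gene after thinning every cell to 5000 UMIs, in the 4 classes, with exact 95% binomial intervals. The bars of Suz12 are higher in KO than in WT cells of both libraries (69.5% against 50.9% and 58.6% against 42.2%), and those of Eed and Jarid2 drop from ESCs to 48h-EpiLCs.

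The spread of the transcripts over cells was set beside that of counting alone. The variance of thinned UMIs per cell divided by the mean, which is 1 for pure counting, lay between 0.897 for Eed and 1.27 for Ezh2, both in the 367 thinned WT 48h-EpiLCs. For a gene with few UMIs this ratio lies near 1 however its level varies, so it cannot show an even spread there. Phf19 in WT 48h-EpiLCs, for instance, had a ratio of 1.0 at a mean of 0.0027 UMIs. The ratio was 1.27 for Jarid2 in KO ESCs, at a mean of 2.47 UMIs. Among the core genes in KO ESCs it was 1.12 for Ezh2, 1.13 for Eed and 1.17 for Suz12. The highest count in 1 unthinned cell was 31 UMIs, for Jarid2.

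No cell type of these cultures should lack the 10 genes, so no background share from free RNA could be taken. The cells of the ESC library with at least 3 of 7 feeder fibroblast markers (148 cells, median 14372.5 UMIs) held Col1a1 at 377 CPM but also the ESC transcript Dppa5a at 1018 CPM, against 2660 CPM in cells without such markers, so that they also held RNA of ESCs. Ezh2 was 91.8 CPM in them (80.1 to 105), Jarid2 173 CPM (157 to 191), Eed 111 CPM (97.7 to 125), Mtf2 129 CPM (115 to 145) and Kdm2b 48.4 CPM (40.0 to 58.1). Aebp2 at 56.3 CPM (47.2 to 66.7) was close to the 59.1 CPM of the other ESCs. Thinned shares in them were 33.6% for Ezh2, 42.3% for Jarid2 and 31.4% for Suz12, and unthinned 55.4%, 57.4% and 60.8%. Cells with at least 3 of 8 primitive endoderm markers (181 cells, median 12313 UMIs, Gata6 at 363 CPM) had Ezh2 at 242 CPM (223 to 261), against 260 CPM in cells without other markers, Eed at 253 against 282 CPM and Suz12 at 183 against 208 CPM. Jarid2 was 293 CPM in them (272 to 314) against 455 CPM, Kdm2b 69.6 CPM (59.8 to 80.6) against 119 CPM, and Ezh1 26.5 CPM (20.5 to 33.5) against 14.5 CPM. Such cells were few in the classes compared. Feeder-marker cells made up 0.460% of WT and 1.65% of KO ESCs, primitive endoderm-marker cells 0.920% and 2.45%, and leaving out both kinds and 2-cell-like cells moved none of the 40 ratios of the 10 genes beyond its interval.

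The levels varied with the cell cycle. Each cell was scored by 39 S-phase and 52 G2/M genes, none of them among the 10, and placed in the S, G2/M or low bin, the last holding cells with neither score above the mean of their library. In the S bin of ESCs Suz12 was 222 CPM (218 to 226), in the G2/M bin 214 CPM (210 to 218) and in the low bin 151 CPM (146 to 155). The 3 bins of 48h-EpiLCs held Suz12 at 176 CPM (172 to 179), 160 CPM (157 to 163) and 114 CPM (111 to 117). The log2 ratio of S over low was thus 0.56 (0.51 to 0.61) and 0.62 (0.57 to 0.68), above the 95th percentile of all genes, which was 0.45 and 0.42. Ezh2 was 279, 261 and 198 CPM in the S, G2/M and low bins of ESCs and 232, 202 and 165 CPM in those of 48h-EpiLCs (S over low 0.49, 0.45 to 0.54, and 0.50, 0.45 to 0.54). Jarid2 was highest in the G2/M bin, at 440, 491 and 356 CPM in ESCs and 203, 214 and 168 CPM in 48h-EpiLCs, and Mtf2 at 389, 401 and 301 CPM and 232, 257 and 192 CPM. Phf19 was also highest in the G2/M bin, at 5.46, 6.40 and 3.88 CPM and 3.74, 4.03 and 2.35 CPM. The intervals of its S and G2/M bins overlapped. Aebp2 in ESCs was at 60.7, 57.2 and 58.2 CPM, where neither ratio lay clear of 0 (0.06, -0.03 to 0.15, and -0.02, -0.11 to 0.06). In 48h-EpiLCs the G2/M over low ratios of Aebp2 (0.09, -0.01 to 0.19), Kdm2b (0.02, -0.06 to 0.09) and Ezh1 (0.19, -0.0009 to 0.38) did not lie clear of 0 either.

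The median over the 10 genes of S over low was 0.44 in ESCs and 0.35 in 48h-EpiLCs, and of G2/M over low 0.40 and 0.26, beside medians of all genes between 0.07 and 0.09. Cells with feeder, primitive endoderm or 2-cell-like markers made up 9.62% of the ESC low bin against 0.862% of the S bin. Without them, an alternative chosen after the data were seen, the ESC medians were 0.37 and 0.33, and Suz12 and Ezh2 had S over low ratios of 0.51 and 0.42. A cell's bin is a range of a score, and 17.3% of ESCs and 11.9% of 48h-EpiLCs lay near its bounds.

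**Figure D5:**
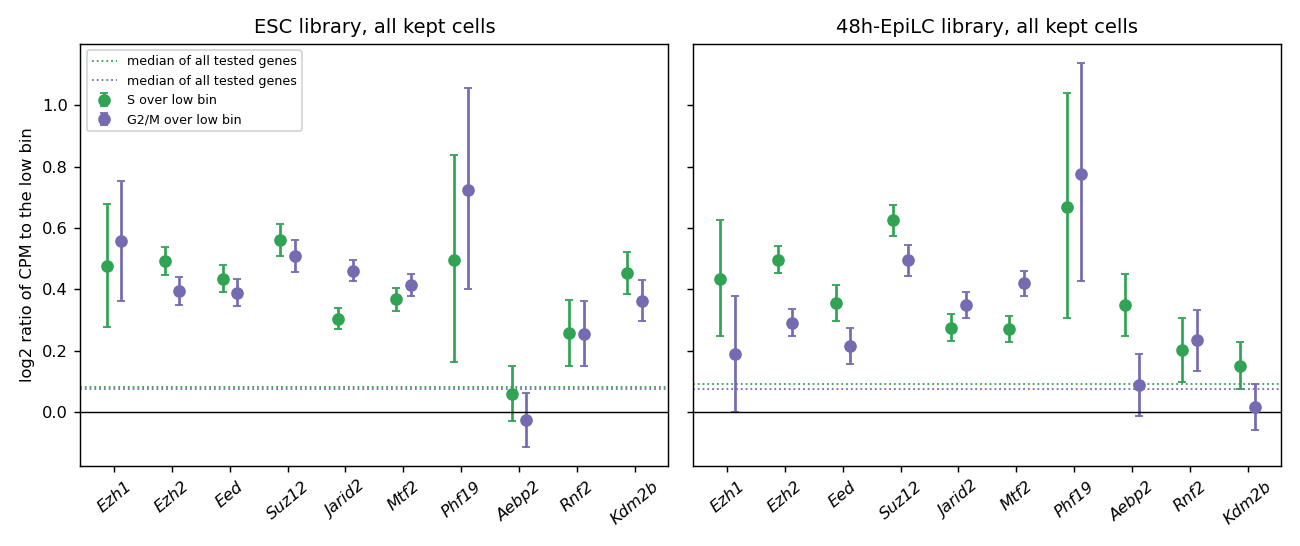
Log2 ratio of CPM of the S bin (green) and the G2/M bin (purple) over the low bin for each gene, over all kept cells of each library, with exact 95% intervals for counting error and the median of all genes measured (dotted). Suz12 lies between 0.49 and 0.62 in all 4 ratios, whereas Aebp2 in ESCs lies at 0.06 and -0.02.

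The lines differed in their share of low-bin cells. It was 20.5% of WT (16.8% to 24.6%) and 10.1% of KO ESCs (9.05% to 11.3%), and 38.0% of WT (33.1% to 43.2%) and 9.88% of KO 48h-EpiLCs (8.83% to 11%). KO cells were chosen by at least 2 Y-linked UMIs, and in the low bin they were deeper than WT cells, with medians of 22949.5 against 15155.5 UMIs in 48h-EpiLCs and 15049 against 12563 UMIs in ESCs. Within bins, Suz12 stayed above 0, with KO over WT ratios of 0.60 (0.45 to 0.76) in the S bin, 0.92 (0.77 to 1.08) in the G2/M bin and 0.47 (0.23 to 0.72) in the low bin of ESCs. In 48h-EpiLCs they were 0.62 (0.42 to 0.82), 0.82 (0.63 to 1.02) and 0.29 (0.09 to 0.50). Mtf2 in 48h-EpiLCs was at 0.83 (0.65 to 1.02), 0.39 (0.25 to 0.53) and 0.32 (0.17 to 0.48). Jarid2 was higher in KO cells of the S bin of ESCs (0.32, 0.22 to 0.42) and lower in those of the low bin (-0.20, -0.34 to -0.05). The part of the cell cycle and of depth in the differences between lines was not tested further.

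The other genes of the pathway were counted in 4 lists. Of 39 further genes, 32 reached 5 CPM in the classes compared. Of the other PRC2 genes (Rbbp4, Rbbp7, Phf1, Epop, Lcor and Ezhip, 4 of 6 measured), 2 were past 1.5-fold higher in KO ESCs, where 12.4% of all genes were, and 2 in KO 48h-EpiLCs, where 8.07% were, with medians of 0.57 and 0.46 against 0.13 and 0.07 for all genes. Epop, which joins PRC2.1 to elongins, was 283 CPM in WT and 532 CPM in KO ESCs (0.91, 0.84 to 0.98) and 90.5 and 187 CPM in 48h-EpiLCs (1.05, 0.92 to 1.17). Its stage ratio was -1.64 (-1.78 to -1.51) in WT and -1.51 (-1.54 to -1.48) in KO cells, further from 0 than that of any of the 10. Lcor, whose locus also yields a PRC2.1 protein, was 11.5 CPM in WT and 24.2 CPM in KO ESCs (1.07, 0.72 to 1.44), and its stage ratio was -0.79 (-0.92 to -0.66) in KO cells. In KO 48h-EpiLCs Lcor was also the other gene past 1.5-fold, at 14.0 CPM against 7.72 CPM in WT (0.86, 0.44 to 1.31).

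Of 13 genes of the PRC1 core and its canonical form, 9 were measured. In ESCs 2 (Phc2 and Cbx2) were past 1.5-fold higher in KO cells and none lower, beside 12.4% and 4.98% of all genes, and in 48h-EpiLCs 2 were higher and 1 lower, beside 8.07% and 4.3% of all genes. Phc2, a polyhomeotic protein that links PRC1 units, was 10.1 CPM in WT and 25.9 CPM in KO ESCs (1.36, 0.99 to 1.75) and 11.9 and 21.9 CPM in 48h-EpiLCs (0.88, 0.54 to 1.24). Scmh1 was 6.27 CPM in WT and 20.1 CPM in KO 48h-EpiLCs (1.68, 1.22 to 2.18), and Phc3 9.97 and 5.58 CPM (-0.84, -1.23 to -0.42). With stage, 2 (Scmh1 and Cbx7) were past 1.5-fold lower in WT cells, beside 11.4% of all genes, and 1 in KO cells, beside 10.1%, Pcgf2 at 44.2 CPM in KO ESCs and 22.3 CPM in KO 48h-EpiLCs (-0.98, -1.09 to -0.88), and the medians were 0.22 in WT and -0.19 in KO cells.

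Of 14 variant PRC1 genes, 13 were measured. With stage, in WT cells 2 were past 1.5-fold higher and 2 lower, near the 13.3% and 11.4% of all genes, and in KO cells 3 were higher and none lower, beside 8.55% and 10.1% of all genes, with medians of 0.25 and 0.09. Yaf2, which can take the place of Rybp in PRC1, was 8.29 CPM in WT ESCs and 24.6 CPM in WT 48h-EpiLCs (1.57, 1.10 to 2.06), and 11.02 and 19.1 CPM in KO cells (0.80, 0.64 to 0.95). E2f6, which brings a variant PRC1 to its sites, was 10.7 and 22.7 CPM in WT (1.08, 0.65 to 1.52) and 11.8 and 21.8 CPM in KO cells (0.88, 0.74 to 1.03), and Pcgf1, the partner of Kdm2b, was 4.92 and 8.79 CPM in KO cells (0.84, 0.61 to 1.07). L3mbtl2 was lower with stage, at 120 and 57.9 CPM in WT cells (-1.05, -1.23 to -0.87), as was Max at 66.0 and 36.8 CPM (-0.84, -1.08 to -0.60). Between the lines 1 variant gene, Rybp, was past 1.5-fold higher in KO ESCs (107 CPM against 70.2 CPM in WT), beside 12.4% of all genes, and none in 48h-EpiLCs, beside 8.07%. Of 6 enzymes that remove the Polycomb marks or serve those that do (Kdm6a, Kdm6b, Usp16, Bap1, Asxl1 and Asxl2), none was past 1.5-fold apart between the lines, and 1, Asxl1, was past 1.5-fold lower with stage in WT cells, beside 11.4% of all genes, and none in KO cells, beside 10.1%.

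Most classical Polycomb target genes were below 1 CPM in each class, though not all of them. The summed level of 64 such genes (all Hox genes and 25 other regulators) was 99.9 CPM in WT ESCs (92.2 to 108), 146 CPM in KO ESCs (143 to 150), 138 CPM in WT 48h-EpiLCs (129 to 148) and 182 CPM in KO 48h-EpiLCs (178 to 185). At least 1 CPM was reached by 12, 20, 14 and 16 of them. Cdkn2a, which encodes cell-cycle inhibitors, had the most UMIs of them in each class, at 36.7, 40.2, 56.4 and 68.0 CPM in the 4 classes in the same order. Isl1 was 1.30, 9.39, 2.09 and 13.5 CPM, and Gata6, also a primitive endoderm marker, 7.96, 16.1, 0.643 and 0.607 CPM. The sums were higher in KO than in WT cells and in 48h-EpiLCs than in ESCs.

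Genes with the pattern nearest to a Polycomb gene over the 4 classes were taken by the distance between centred log2(CPM + 1) values, among 6380 genes of at least 20 CPM in a class. The nearest to Phf19, which had the widest range of the 10 (1.78), were Fkbp6 (distance 0.16), Syce1 (0.24), Klf3 (0.24), Mob3a (0.27) and Hormad1 (0.30). Fkbp6, for instance, was 44.4 CPM in WT ESCs, 86.4 CPM in KO ESCs, 24.8 CPM in WT 48h-EpiLCs and 51.6 CPM in KO 48h-EpiLCs. The nearest to Ezh2 were Atxn3 (0.02), Nid2 (0.03), 2610021A01Rik (0.03), Tcea1 (0.04) and Uspl1 (0.04). With 4 classes many genes lie close to any pattern, and the distances are a description.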

How the data were processed

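Values were the UMI counts per gene and barcode that the authors deposited for 2 droplet libraries, made by their methods with Cell Ranger (version 3.0.2) on mm10 with the tdTomato coding sequence added, and analysed by them in Seurat (version 4). Total counts were 144584246 over 13184 ESC barcodes and 163771168 over 12427 48h-EpiLC barcodes. No correction for free RNA is stated. No doublet caller was run, and leaving out the 10% of cells with the most UMIs was an alternative. Counts were summed per class, with 1 sample per group, so that no test was possible and no p-value is given. CPM carried Poisson, ratios conditional binomial and shares Clopper-Pearson 95% intervals (scipy 1.17.1). Differences between stage changes carried 95% intervals by a normal approximation from the Poisson variance of the counts. TMM factors came from edgeR 4.0.16. Genes were placed with GENCODE M21 (99.8% of features matched). Alternatives, 17 in number, changed scaling, pseudocount (1 CPM), minimum level (5 CPM), cell filters, line rule, depth and cell-cycle bin. The scripts were tested on simulated data.

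The 10 genes, the lists and the marker sets were chosen with earlier results of these data known. Named beside the 10 were at most 3 list genes per direction and comparison with the largest ratio past 1.5-fold, the 4 highest target genes (1 of them is not reported here), and the 5 genes nearest to Ezh2 and to the gene with the widest range. Cbx2, Cbx7, Rybp, Asxl1 and Scmh1 with stage, and Lcor in 48h-EpiLCs, were named after their values were seen, to fill counts of 5 or fewer. The E2F motif, the levels by cell-cycle bin without marker-positive cells, the accessory share with Epop and the deep cells with an unchanged line rule were also chosen after the data were seen.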

Additional observations from a re-analysis of the deposited data

How the results depend on the processing

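Counting error was the one error these libraries gave. No paired analysis was possible because each stage had 1 library without a replicate number, and no replicate could be left out. The counts of genes past 1.5-fold between stages stayed within 1.5 times of 5 under all 17 alternatives. No called value changed sign. For KO over WT in 48h-EpiLCs, the count of 1 gene became 2 without a minimum level, with means of single-cell CPM, and in the S and G2/M bins, 3 without the deepest 10% of cells and after thinning, and 0 in the low bin and in cells of at least 20000 UMIs, both with WT taken by 0 Y-linked UMIs alone and with the line rule unchanged. In ESCs the count of 3 became 0 in cells of at least 20000 UMIs with WT taken by 0 Y-linked UMIs (called deep cells from here on, a setting that changes 2 choices), 2 with the line rule unchanged, and 1 in the low bin, where that gene was Kdm2b, lower in KO cells, and where the median ratio was -0.042. The Ezh1 share became 5.0% in WT ESCs of the deep cells and 5.89% in KO ESCs of the low bin. The Phf19 share became 1.36% (deep cells), 0.353% (thinned), 0.491% (S bin) and 0.508% (low bin) in WT ESCs, 2.54% in KO ESCs of the low bin, 1.51% in WT 48h-EpiLCs of the S bin, and 1.5% (deep cells) and 0.856% (low bin) in KO 48h-EpiLCs. The Jarid2 plus Aebp2 share became 54.5% (thinned) and 60.8% (low bin) in WT ESCs, and 56.9% (thinned), 56.97% (S bin) and 58.5% (low bin) in KO ESCs. In WT 48h-EpiLCs it became 50.4% (deep cells) and 55.7% (S bin), and in KO 48h-EpiLCs 47.65% (without the deepest 10%), 47.69% (thinned), 49.45% (S bin) and 47.66% (G2/M bin). With Epop counted, added after the data were seen, it became 42.95% and 36.87% in WT and KO ESCs and 43.01% and 35.72% in WT and KO 48h-EpiLCs. Without marker-positive cells, the ESC medians over low-bin levels became 0.37 (S) and 0.33 (G2/M). The cause of these moves was not tested.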
